A study of Mus musculus with 24 samples.

Results

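The genes described here are 8 genes of the oxidative stress response governed by NRF2 and the 2 inducible metallothioneins, measured in mouse cerebellum. They are Nfe2l2, Hmox1, Nqo1, Gclc, Gclm, Srxn1, Txnrd1 and Osgin1, with Mt1 and Mt2. Members were every probe whose transcript maps to one of these 10 genes. This gave 12 of the 56605 probes on the array, for 10 of its 22911 gene symbols, with 2 probes each for Mt1 and Txnrd1. All 12 were among the 38115 probes kept for testing, which were well above background on both arrays of at least 1 group.

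The 24 one-colour Agilent arrays hybridised Cy3-labelled total RNA from the cerebellum of C57BL/6 mice at 28 days of age, in 12 groups of 2 arrays. Controls carried Derlin-1 flox/flox or Derlin-2 flox/flox alleles. Knockout (KO) mice carried the same floxed alleles with Cre recombinase under the nestin promoter, which is active in the precursors of neurons and glia and deletes across the central nervous system, so the KO is not limited to one cell type. Microglia do not derive from these precursors. The Derlins sit in the membrane of the endoplasmic reticulum and take part in the removal of misfolded proteins. Mice received either 200 mg/kg 4-phenylbutyrate (4PBA), a chemical chaperone that also inhibits histone deacetylases, or water as vehicle, by intraperitoneal injection each day from day 14 to day 28. The Derlin-1 line was measured in a numbered series (control vehicle, KO vehicle, control 4PBA, KO 4PBA) and in a lettered series with arrays a and b. The labels of the lettered arrays without 4PBA name no vehicle, and these are called untreated. The Derlin-2 line was measured once, with vehicle and with 4PBA. Each of these sets lay on 1 slide of 8 arrays, and the lettered slide was scanned on another day. Controls always took slide columns 1 and 2 and KO columns 3 and 4, with the arrays without 4PBA in row 1, so position on the slide and group cannot be told apart. The labels do not say that the 2 arrays of a group came from separate animals, and the p-values then measure only the spread between these samples.

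NRF2, the product of Nfe2l2, is a transcription factor that KEAP1 holds at low abundance in unstressed cells. When oxidants or electrophiles modify KEAP1, NRF2 accumulates, pairs with small MAF proteins at antioxidant response elements (AREs) and induces enzymes that make glutathione, reduce thioredoxin and quinones, and break down haem. Metallothioneins are small cysteine-rich proteins that bind zinc and copper, and MTF1 induces them through metal response elements (MREs). In the brain both are made mainly by astrocytes and are also induced by glucocorticoids.

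Levels are log2 intensities relative to the 75th percentile of the same array, so a level of 0 is the intensity of that percentile, and levels of different probes are not compared. A probe was called where its adjusted p, from limma with Benjamini-Hochberg adjustment over all tested probes, was under 0.05. The 12 probes were well above background on all 24 arrays, except Osgin1, which was so on 23. No spot was saturated. Arrays had 57.7% to 68.4% of their spots well above background and a 75th percentile at an intensity of 890 to 1170. The number of arrays limits the precision. The standard error (SE) of the difference between 2 groups had a median over probes of 0.14 on the log2 scale where both Derlin-1 series were averaged, and of 0.20 within 1 slide. Defining markers of cerebellar granule neurons were present on every array (mean level of 5 genes 3.80 to 4.67).

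Before the results, 2 arrays went against their labels in a gene of the Derlin family. The array labelled Derlin-2 KO vehicle 1 read 1.72 on the brighter Derl2 probe, where the other 3 arrays labelled Derlin-2 KO read 0.18 to 0.48 and the Derlin-2 controls 1.40 to 1.58. Derl3 did not go against the label of that array: it read -1.85, where the other Derlin-2 KO arrays read -0.61, -1.93 and -1.96 and the Derlin-2 controls -3.03 to -2.75. The lettered array b labelled Derlin-1 KO with 4PBA read -2.27 for Derl3, another gene of the family, whose level on the other arrays labelled Derlin-1 KO lay between -0.63 and 0.37. The Derlin-1 controls lay between -3.14 and -1.69. The Derl1 probe overlapped between KO arrays (0.14 to 0.94) and controls (0.76 to 1.22) of the Derlin-1 line. Whether it lies in the deleted part is not stated in the sources used here, so it checks no label. The main results that rest on either array are also given without it.

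The members differed widely in how much they varied over the 24 arrays. Over all 3 slides together the glutamate-cysteine ligase genes had the narrowest ranges: the level of Gclc, the catalytic subunit of the enzyme that limits glutathione synthesis, had a range of 0.28 (1.33 to 1.61, median 1.51). Gclm, its modifier subunit, had a range of 0.49 (2.41 to 2.91, median 2.59). The brighter Txnrd1 probe, for thioredoxin reductase, spanned 0.52 (1.69 to 2.20) and the dimmer one 0.74 (-0.39 to 0.35). Srxn1, whose product sulfiredoxin repairs overoxidised peroxiredoxins, spanned 0.66 (3.09 to 3.75), and Nfe2l2 itself 0.90 (-0.11 to 0.79). Wider ranges were those of Nqo1, a quinone reductase and classic NRF2 target, with 1.05 (-2.17 to -1.12), of Mt2 with 1.18 (6.35 to 7.53), and of Hmox1, the inducible haem oxygenase, with 1.32 (-1.60 to -0.28). Osgin1, an oxidative stress-induced growth inhibitor, spanned 1.54 (-5.00 to -3.46). Mt1 spanned 0.89 on its brighter probe (6.99 to 7.88) and 4.07 on its dimmer probe (-3.48 to 0.59), which the array's design assigns to another transcript record of the gene. This order was not that within each slide, since part of a range over all arrays lies between slides. In the numbered series Srxn1 (0.13) and the brighter Txnrd1 probe (0.16) had narrower ranges than Gclm (0.18) and Gclc (0.21). In the Derlin-2 line Srxn1 and the brighter Txnrd1 probe (0.19 each) did so too, against 0.25 for Gclc and 0.46 for Gclm. In the lettered series Gclm (0.27) and Gclc (0.28) were the narrowest.

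**Figure D1:**
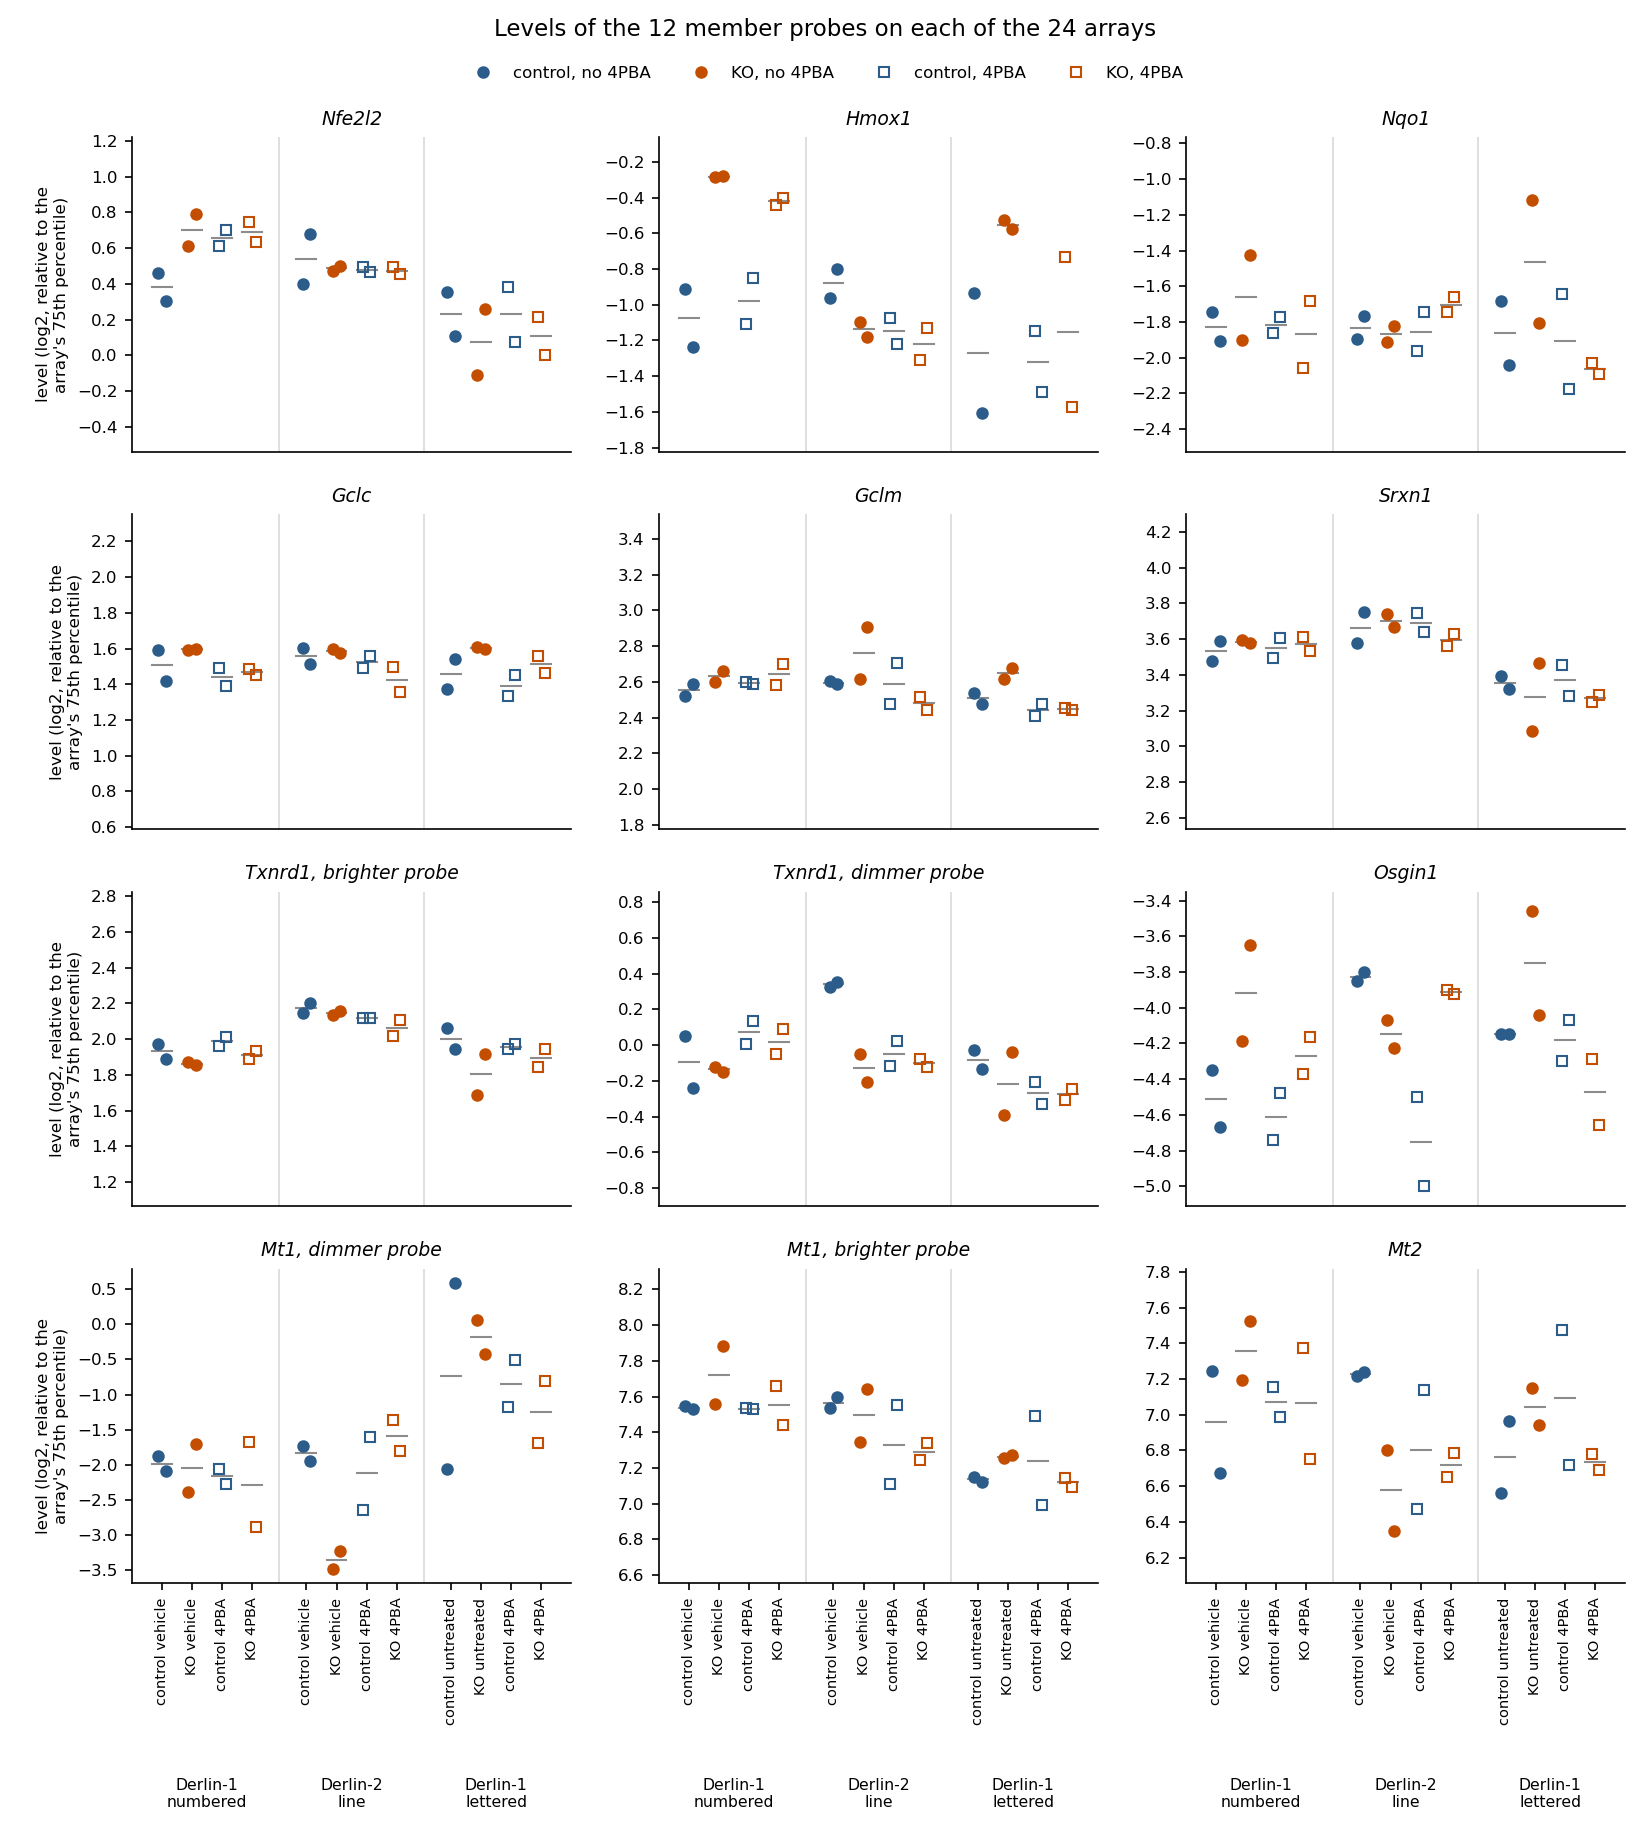
Level of each of the 12 member probes (y axis, log2 relative to the array's 75th percentile) on each of the 24 arrays, by group along the x axis. Each point is 1 array, the short line is the mean of the 2 arrays of a group, every panel has its own range, and the Hmox1 panel shows the Derlin-1 KO arrays without 4PBA between -0.58 and -0.28, above every control.

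In the plot of levels by array, Hmox1 is the member whose neighbouring groups overlapped least often, in 8 of 11 pairs. The brighter Txnrd1 probe was close, with 9 of 11. How often neighbouring groups overlap on the other probes of the array was not measured. When the 12 groups were ordered by their mean Hmox1 level, the first was Derlin-1 KO vehicle with -0.28, followed by Derlin-1 KO 4PBA of the numbered series with -0.42, untreated Derlin-1 KO with -0.55 and Derlin-2 control vehicle with -0.88. The 3 neighbouring pairs among these 4 groups did not overlap, while the other 8 of 11 neighbouring pairs did. The lowest means were those of the lettered controls, with -1.27 untreated and -1.32 with 4PBA. For Mt2 the order ran from 7.36 in Derlin-1 KO vehicle to 6.58 in Derlin-2 KO vehicle, and all 11 neighbouring pairs overlapped. All 11 also overlapped for Gclc, Gclm, Nfe2l2 and the brighter Mt1 probe, so the order of the groups is not settled for these genes.

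The first comparison asked how loss of Derlin-1 changed these genes without 4PBA. Hmox1 rose and no other member passed the test. In the numbered series Hmox1 had levels of -0.91 and -1.24 in the vehicle controls and -0.29 and -0.28 in the vehicle KO. In the lettered series it had -0.93 and -1.60 in the untreated controls and -0.52 and -0.58 in the untreated KO. The KO arrays were higher than the controls of their slide in both series, with no overlap. The log2 fold change averaged over both series was 0.76 (SE 0.17, 95% confidence interval 0.39 to 1.12, adjusted p = 0.0247), a 1.69-fold rise. Within the numbered series alone it was 0.79 (SE 0.24, adjusted p = 0.27) and within the lettered series 0.72 (SE 0.24, adjusted p = 0.15). The difference between the 2 series was -0.07 (SE 0.34, adjusted p = 0.997). At the same threshold 5.09% of all probes were called in this comparison, 2.53% as higher, and a single call among 12 probes is near that background. Within the series alone 0.0236% (numbered) and 0.622% (lettered) of probes were called, and 0.0131% differed between them; no member was among these.

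The Hmox1 call did not hold under every setting. It was lost when the median replaced the 75th percentile (0.64, adjusted p = 0.0839) and in a fit of the Derlin-1 arrays only (adjusted p = 0.0973). It was also lost without control vehicle 2 (0.67, adjusted p = 0.0926), KO vehicle 1 (0.76, 0.0706), KO vehicle 2 (0.75, 0.0785), untreated control b (0.59, 0.0704) or untreated KO a (0.74, 0.0973). Over 18 other settings the log2 fold change of Hmox1 lay between 0.59 and 0.92, its adjusted p between 0.00808 and 0.0973, and 11 settings kept the call.

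Osgin1 came next in size. Its levels were -4.35 and -4.67 in the numbered vehicle controls against -4.18 and -3.65 in the vehicle KO. In the lettered series they were -4.15 and -4.15 in the untreated controls against -3.46 and -4.04 in the untreated KO. The KO arrays lay above the controls in both series. The log2 fold change of Osgin1 was 0.50 (SE 0.16, interval 0.15 to 0.84), with an unadjusted p of 0.00795 that did not pass after adjustment (adjusted p = 0.0911). Over 17 other settings it lay between 0.23 (normexp background correction) and 0.64. Normexp correction adds an offset of 50, which by construction makes log2 changes of dim probes such as Osgin1 smaller. The single setting that called Osgin1 was the one without untreated KO b (0.64, adjusted p = 0.029), and without untreated KO a it was 0.35 (adjusted p = 0.358).

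Nqo1 had levels of -1.75 and -1.91 in the vehicle controls and -1.90 and -1.42 in the vehicle KO. The lettered arrays had -1.68 and -2.04 in controls and -1.12 and -1.81 in the KO. Groups overlapped in both series, and the log2 fold change of 0.28 (SE 0.16, interval -0.07 to 0.63, adjusted p = 0.368) was within the spread. One untreated KO array, a, held the highest Nqo1 level of all 24 arrays, and without it the difference was 0.11 (adjusted p = 0.87). Over 18 other settings the Nqo1 difference lay between 0.11 and 0.45 and was called in 0.

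Small differences with narrow intervals were measured for the glutathione and thioredoxin genes. Gclc had a log2 fold change of 0.12 (SE 0.07, interval -0.02 to 0.26) and Gclm one of 0.11 (SE 0.07, interval -0.05 to 0.26), neither past the threshold (adjusted p = 0.352 and 0.455). Srxn1 had -0.01 (SE 0.08, interval -0.19 to 0.16). The brighter Txnrd1 probe was lower in the KO arrays of both series without overlap, with a log2 fold change of -0.13 (SE 0.06, adjusted p = 0.244), and the dimmer probe had -0.09 (SE 0.09, adjusted p = 0.66). The 95% intervals of Gclc, Gclm and Srxn1 do not reach the change measured for Hmox1. Nfe2l2 mRNA had 0.08 (SE 0.11, interval -0.14 to 0.31). This average covered vehicle KO levels of 0.61 and 0.79 against 0.46 and 0.30 in the numbered controls, and untreated KO levels of -0.11 and 0.26 against 0.35 and 0.11 in the lettered controls. The series thus pointed opposite ways for Nfe2l2, and their difference was -0.48 (SE 0.21, adjusted p = 0.985).

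For the metallothioneins, Mt2 had levels of 7.25 and 6.68 in the vehicle controls and 7.19 and 7.53 in the vehicle KO. In the lettered series it had 6.56 and 6.97 in the controls and 7.15 and 6.94 in the KO. The groups overlapped in both series, with a log2 fold change of 0.34 (SE 0.21, interval -0.11 to 0.79, adjusted p = 0.404). The brighter Mt1 probe had 7.55 and 7.53 in vehicle controls, 7.56 and 7.88 in vehicle KO, 7.15 and 7.12 in untreated controls, and 7.26 and 7.27 in untreated KO. These KO arrays did lie above the controls of their slide in both series, but the difference was 0.15 (SE 0.12, adjusted p = 0.542). The dimmer Mt1 probe had 0.25 (SE 0.47, interval -0.75 to 1.25), too wide to place.

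Across the 12 probes, 9 were higher and 3 lower in the Derlin-1 KO without 4PBA, with a median log2 fold change of 0.14 against 0.02 over all probes. With the median as scale, which moved the median of all probes to -0.10, 7 of 12 were higher, and with quantile normalisation 10 of 12. Arrays separated the same way in both series for 5 of the 12 probes (Hmox1, Osgin1, Gclm, the brighter Mt1 probe, and, downward, the brighter Txnrd1 probe), against 19% of all probes.

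**Figure D2:**
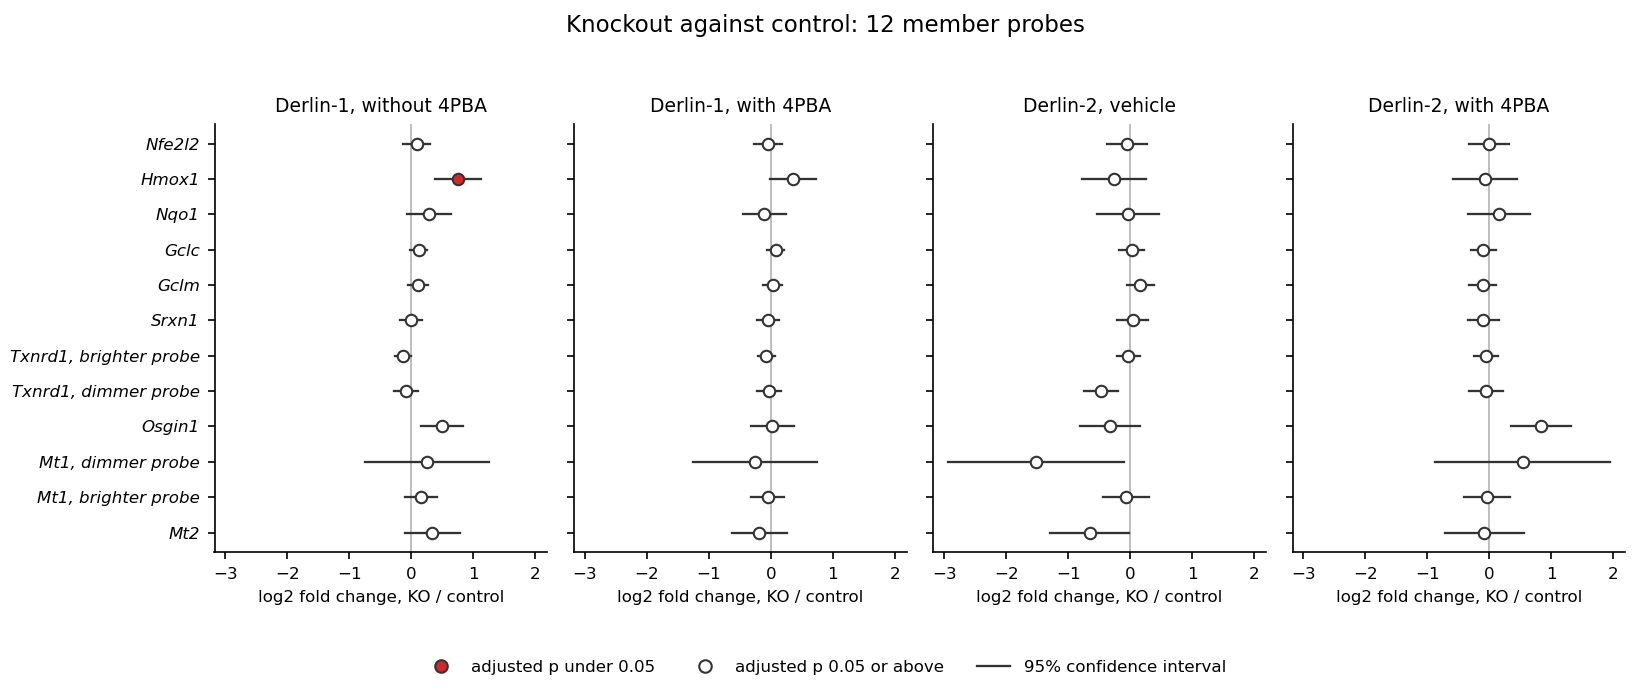
Log2 fold change of KO against control (x axis) for the 12 member probes (y axis) in the 4 KO comparisons, with 95% confidence intervals from limma. Filled red points have an adjusted p under 0.05: the single one is Hmox1 at 0.76 in the Derlin-1 KO without 4PBA.

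Markers of microglia, the resident macrophages of the brain, moved with Hmox1. All 10 listed microglia genes were higher in the Derlin-1 KO without 4PBA and 8 were called, with a median log2 fold change of 1.24. The complement genes C1qa, C1qb and C1qc had 1.43 to 1.44, Trem2 had 1.77 and Aif1 had 1.49, while P2ry12 (0.24, adjusted p = 0.567) and Tmem119 (0.29, adjusted p = 0.127) did not pass. The mean level of the 10 genes was -0.09 to 0.27 on the control arrays without 4PBA and 0.99 to 1.31 on the KO arrays. None of the 10 was at background on any array. Gfap, the intermediate filament of reactive astrocytes, also rose by 1.25 (SE 0.18, adjusted p = 0.00497), but it was the 1 called of 8 astrocyte and Bergmann glia genes, 5 of which were higher. Granule neuron genes were lower in 5 of 5, and 2 were called. The part of these cell markers in the Hmox1 result was not tested, and in bulk tissue fewer or more cells of a type and less or more RNA per cell cannot be told apart. Over the other settings the number of microglia genes called lay between 5 and 8.

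Hmox1 and these markers were low together on the array with the doubtful label. Among the 4 arrays labelled Derlin-1 KO 4PBA, the mean microglia level was 0.82 to 1.02 in the numbered series and 1.09 on array a of the lettered series, with Hmox1 at -0.44, -0.40 and -0.74. Array b had a microglia level of -0.05 and an Hmox1 level of -1.57, both within the range of the controls.

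**Figure D3:**
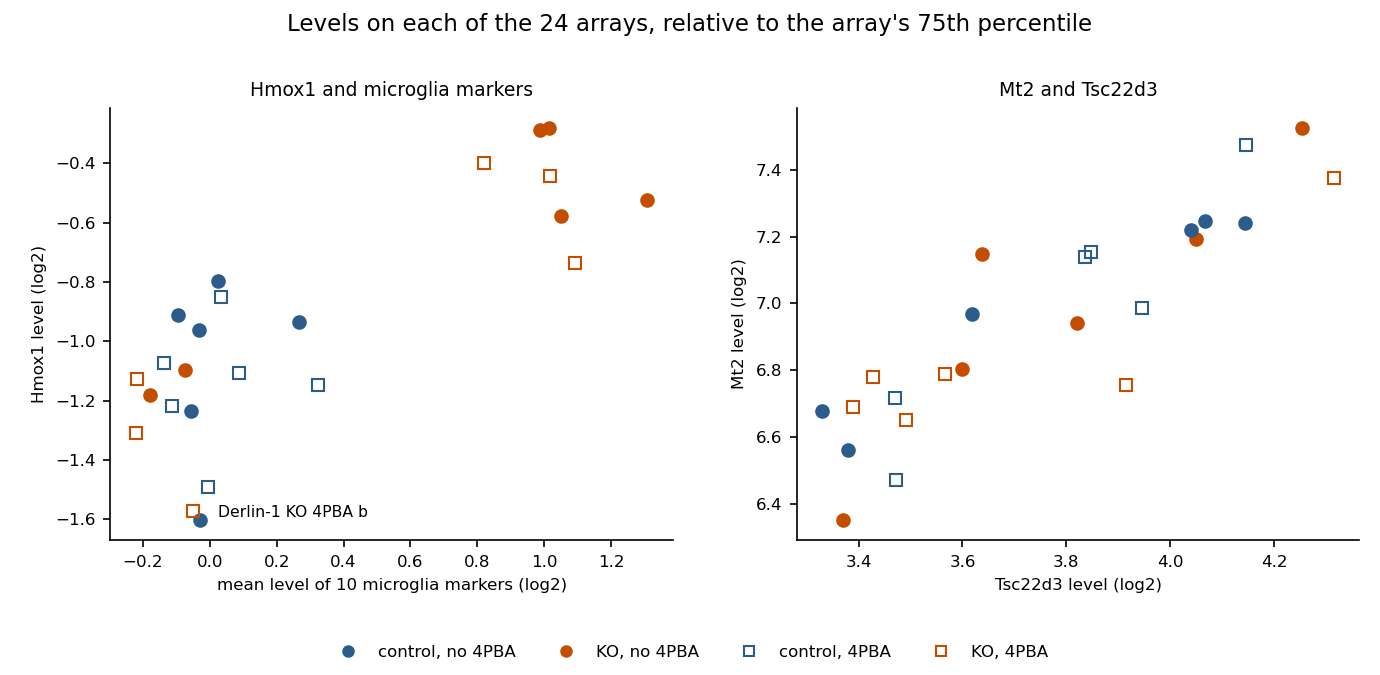
Left, Hmox1 level against the mean level of 10 microglia markers, and right, Mt2 level against Tsc22d3 level, each point 1 of the 24 arrays, all axes log2 relative to the array's 75th percentile. Arrays with a mean microglia level from 0.82 to 1.31 are Derlin-1 KO arrays and hold the highest Hmox1 levels, while the marked array, lettered KO 4PBA b, sits among the controls.

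The genes whose pattern was most like that of each member were found, for 9 of the 10 members, over the 24 arrays among the brightest probes of 14257 genes, after the mean of each slide was subtracted. Osgin1 was left out, since only probes well above background on all 24 arrays entered. These correlations are descriptions: the arrays share 3 slides and the same 12 groups. For Hmox1 Pros1 (r = 0.949) and Blnk (0.937) were among the 3 closest. With the group means subtracted as well, which leaves the differences between the 2 arrays of a group, r was 0.888 for Pros1 and 0.865 for Blnk. Over the 22 arrays without the 2 doubtful ones r was 0.953 for Pros1 and 0.936 for Blnk.

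For Mt2 the closest genes were Smim3 (r = 0.92), Tsc22d3 (0.901, and 0.899 over the 22 arrays), a classic glucocorticoid-induced gene, and Eva1a (0.884). Tsc22d3 followed Mt2 within groups: the Derlin-1 vehicle controls had Tsc22d3 levels of 4.07 and 3.33, where Mt2 had 7.25 and 6.68. The brighter Mt1 probe was closest to Ak3 (0.788), 1600029O15Rik (0.766) and Nudt9 (0.761). Gclm was closest to Ftl1 (0.791), which encodes ferritin light chain, Cdr2 (0.779) and Pja2 (0.776). Nqo1 was closest to 2210416O15Rik (0.863), Agbl3 (0.837) and Chpt1 (0.825), and Txnrd1 to Ift43 (0.926), Ttl (0.914) and Tmprss5 (0.893). Srxn1 was closest to Bcas1 (0.867), Nap1l1 (0.844) and Elovl5 (0.827). The closest to Nfe2l2 were Krcc1 (0.846), Shq1 (0.818) and Ikbip (0.792), and to Gclc, Nexn (0.845), Astn1 (0.816) and Cntnap5b (0.811).

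Among the members themselves, the highest correlations were Mt1 with Mt2 (r = 0.655), Nfe2l2 with Srxn1 (0.634) and Srxn1 with Txnrd1 (0.543), followed by Hmox1 with Nqo1 (0.493) and Gclc with Gclm (0.462). No pair of the 7 NRF2 genes compared had a correlation above that of Nfe2l2 with Srxn1. Other pairs ran opposite ways, the lowest being Nqo1 (-0.444), Gclc (-0.406) and Hmox1 (-0.379), each with Txnrd1. Nfe2l2 with Gclc had -0.218.

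Mt1 and Mt2 lie side by side on chromosome 8 in the same orientation, and the 250 bases before their transcription starts are shown because metallothionein genes are known to respond to metals and oxidants through MREs and AREs near their starts. Sequences are from RefSeq (GRCm38.p6). The searched windows ran from 250 bases before to 50 bases after the start, on both strands. The ARE core was TGACNNNGC and the MRE core TGCGCNC or TGCACNC. Matches are in capitals in the 250 bases before the start, Mt2 at chr8:94172368-94172617 and Mt1 at chr8:94178839-94179088, both on the plus strand.
Mt2: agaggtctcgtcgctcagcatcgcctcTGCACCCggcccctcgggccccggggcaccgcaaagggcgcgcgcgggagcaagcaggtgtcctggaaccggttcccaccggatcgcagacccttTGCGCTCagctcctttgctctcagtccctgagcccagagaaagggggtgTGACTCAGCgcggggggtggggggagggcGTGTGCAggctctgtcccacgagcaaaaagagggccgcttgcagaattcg
Mt1: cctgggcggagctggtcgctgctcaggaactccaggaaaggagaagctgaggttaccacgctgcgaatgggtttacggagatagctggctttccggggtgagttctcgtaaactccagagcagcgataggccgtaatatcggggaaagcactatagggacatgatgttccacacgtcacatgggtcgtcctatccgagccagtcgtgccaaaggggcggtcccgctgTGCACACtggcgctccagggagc

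The Mt2 window held 4 MRE core matches, with first bases at -223, -128, -50 and +5 from the start, and 1 ARE core match at -79. The Mt1 window held 3 MRE core matches, at -23, +3 and +21, and no ARE core match, and the 2 windows start 6471 bases apart. Of 32851 RefSeq windows of this length, 25.7% held an MRE core and 12.4% an ARE core, while 0.517% held 4 or more MRE cores. Windows were available for 8 of the 10 genes. The ARE core was also found for Gclm at -134, where it overlaps an MRE core match at -138, for Srxn1 at +29, for Nfe2l2 at -240 and, in 1 of its 3 windows, for Txnrd1 at -92. MRE core matches were also found for Gclm, at -138, -72 and +28, and for Srxn1 at -19. The window letters of Nqo1 and Osgin1 held neither motif. A match describes letters and does not show that a factor binds there. A window without a match does not show that the gene lacks the motif, which can lie beyond the window.

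With 4PBA, loss of Derlin-1 left no member past the test, against 0.063% of all probes called. Hmox1 levels were -1.11 and -0.85 in the numbered 4PBA controls and -0.44 and -0.40 in the 4PBA KO, so these groups did not overlap. The lettered series had -1.15 and -1.49 in controls, and -0.74 and -1.57 on the arrays labelled KO a and b. The log2 fold change was 0.36 (SE 0.17, interval -0.01 to 0.73, adjusted p = 0.523). Without array b of the lettered KO it was 0.57 (SE 0.15, adjusted p = 0.0683), and the count of called probes went from 24 to 1079. None of the 12 probes separated the same way in both series, against 5.78% of all probes, and 4 were higher and 8 lower. For Hmox1 the overlap in the lettered series came from array b alone, since array a lay above both lettered controls. Without both doubtful arrays 5 of 12 probes were higher, and separation was not counted again. Mt2 had -0.18 (SE 0.21, interval -0.63 to 0.27), Osgin1 0.03 (SE 0.16) and Nqo1 -0.10 (SE 0.16). Without array b they had -0.16, 0.12 and -0.09, with adjusted p-values of 0.886, 0.883 and 0.933.

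Loss of Derlin-2 with vehicle gave no called member, against 0.121% of all probes. The mean Hmox1 level was lower in the KO, not higher: it had -0.96 and -0.80 in the vehicle controls, and -1.10 and -1.18 on the arrays labelled KO vehicle 1 and 2, a log2 fold change of -0.26 (SE 0.24, interval -0.78 to 0.26). The microglia markers stayed between -0.22 and 0.02 on all 8 arrays of the Derlin-2 line. Mt2 and the dimmer Mt1 probe had lower levels in the KO, and neither passed. Mt2 had 7.22 and 7.24 in controls against 6.80 and 6.35 in the KO, a difference of -0.65 (SE 0.30, interval -1.29 to -0.02, adjusted p = 0.712). The dimmer Mt1 probe had -1.73 and -1.94 against -3.48 and -3.23, a difference of -1.52 (SE 0.66, adjusted p = 0.70), whereas the brighter Mt1 probe had 7.54 and 7.60 against 7.35 and 7.64. These groups overlapped, and the difference of -0.07 (SE 0.17) turned to 0.08 (adjusted p = 0.944) when KO vehicle 1 was left out.

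The dimmer Txnrd1 probe had the lowest p of the members in this comparison. Its levels were 0.33 and 0.35 in the Derlin-2 vehicle controls and -0.05 and -0.21 on the vehicle KO arrays, a difference of -0.47 (SE 0.13, interval -0.74 to -0.20, adjusted p = 0.348). The brighter Txnrd1 probe had -0.03 (SE 0.09), so the probes of this gene disagreed in size. The 6 probes that separated were Hmox1, Osgin1, Mt2 and the dimmer probes of Mt1 and Txnrd1, all lower, and Gclm, higher; 47% of all probes separated. Without the array labelled Derlin-2 KO vehicle 1, Mt2 had -0.88 (adjusted p = 0.474), the dimmer Txnrd1 probe -0.55 (0.222), the brighter one -0.02 (0.978) and the dimmer Mt1 probe -1.39 (0.687). Hmox1 then had -0.30 (0.839) and Osgin1 -0.40 (0.742). Of all probes 157 were then called, in place of 46.

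With 4PBA, the Derlin-2 KO again had no called member, against 0.171% of all probes, and 4 of 12 separated, against 34.9%. Osgin1 had levels of -4.50 and -5.00 in the 4PBA controls, the second not well above background, and -3.90 and -3.92 in the 4PBA KO. The difference was 0.84 (SE 0.23, interval 0.35 to 1.32) with an unadjusted p of 0.00235 and an adjusted p of 0.372. Without control 4PBA 2 the Osgin1 difference was 0.59 (adjusted p = 1.0), and with normexp background correction 0.41 (0.533). The other 11 probes had an adjusted p of 1.0.

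The KO effects of the 2 lines with vehicle were compared directly, the numbered Derlin-1 series against the Derlin-2 line, which lie on different slides. No member passed, against 0.0472% of probes. The Hmox1 effect was larger in the Derlin-1 line by 1.05 (SE 0.34, interval 0.31 to 1.79, adjusted p = 0.441), and by 1.09 (adjusted p = 0.383) without the array labelled Derlin-2 KO vehicle 1. Differences of similar size were measured for Mt2 (1.05, SE 0.42, adjusted p = 0.522) and Osgin1 (0.92, SE 0.32, adjusted p = 0.476). Without that array they were 1.28 and 0.997. The largest difference was 1.46, on the dimmer Mt1 probe. The brighter Mt1 probe lay between 0.089 and 0.415 over 18 other settings, so the metallothionein probes differed in size. With normexp background correction the Osgin1 difference was 0.44 (adjusted p = 0.511). Over all 4 tests of differences between effects, 48 values on member probes were tested and 0 were called, with 8 at an unadjusted p under 0.05. Among all probes an unadjusted p under 0.05 was reached by 3330 of 38105 for the difference between lines and by 1255 of 38110 for that between series. For 4PBA it was reached by 865 of 38106 in the Derlin-1 line and by 1843 of 38088 in the Derlin-2 line.

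The response to 4PBA was compared in each genotype. In the Derlin-1 controls no member passed the test: 6 probes were higher and 6 lower, all with an adjusted p of 1.0 and none at an unadjusted p under 0.05. Of all probes 0.0341% were called, and 0 of the 12 separated in both series, against 2.39%. Hmox1 had a log2 fold change of 0.02 (SE 0.17, interval -0.35 to 0.39) and Mt2 one of 0.22 (SE 0.21, interval -0.23 to 0.67).

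In the Derlin-1 KO, 4PBA also gave no called member, against 0.0525% of all probes, with 9 of 12 probes lower. Osgin1 had -0.54 (SE 0.16, unadjusted p = 0.00482, adjusted p = 0.762), from -4.18 and -3.65 with vehicle to -4.37 and -4.17 with 4PBA in the numbered series. In the lettered series it went from -3.46 and -4.04 untreated to -4.29 and -4.65 with 4PBA. Nqo1 had -0.40 (SE 0.16, adjusted p = 0.907) and Hmox1 -0.37 (SE 0.17, adjusted p = 0.928). Hmox1 and Gclc separated downward in both series, 2 of 12 against 5.97% of all probes. Without lettered KO 4PBA array b the Hmox1 value was -0.16, that of Osgin1 -0.44 and that of Nqo1 -0.39. With normexp background correction Osgin1 had -0.22 (adjusted p = 0.941). The KO effect with 4PBA minus that without was -0.39 for Hmox1 (SE 0.24, interval -0.92 to 0.13, adjusted p = 1.0) and -0.47 for Osgin1 (SE 0.23, adjusted p = 1.0), and 0.0315% of all probes were called for this difference. Without array b these were -0.18 for Hmox1 and -0.38 for Osgin1.

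In the Derlin-2 controls 11 of 12 probes were lower with 4PBA (10 under quantile normalisation and 12 with the median as scale, which moved the median of all probes to -0.18) and none was called, against 0.176% of all probes. Osgin1 went from -3.85 and -3.80 with vehicle to -4.50 and -5.00 with 4PBA. The difference was -0.93 (SE 0.23, interval -1.41 to -0.44, unadjusted p = 0.00111, adjusted p = 0.248). It passed under quantile normalisation (-1.07, adjusted p = 0.0458), with the median as scale (-1.09, 0.0492) and with no filter on dim probes (-0.93, 0.0255). Without control 4PBA 2, whose Osgin1 spot was not well above background, it was -0.68 (adjusted p = 0.671). With normexp background correction the Osgin1 difference was -0.44 (adjusted p = 0.496). The dimmer Txnrd1 probe had -0.39 (SE 0.13, adjusted p = 0.521) and Mt2 -0.43 (SE 0.30, adjusted p = 0.868). Here 5 of 12 separated, against 45%.

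In the Derlin-2 KO no member was called with 4PBA, against 0.155% of all probes, and 8 of 12 separated, against 42.9%. The Mt1 probes differed in sign, and neither passed. The dimmer one went from -3.48 and -3.23 with vehicle to -1.37 and -1.81 with 4PBA, a difference of 1.77 (SE 0.66, adjusted p = 0.518). The brighter Mt1 probe went from 7.35 and 7.64 to 7.24 and 7.34, a difference of -0.21 (SE 0.17, adjusted p = 0.832). Without the array labelled Derlin-2 KO vehicle 1 these differences were 1.64 and -0.35. Gclm had 2.62 and 2.91 with vehicle and 2.52 and 2.44 with 4PBA, a difference of -0.28 (SE 0.10, adjusted p = 0.502), and of -0.43 (adjusted p = 0.18) without the array labelled Derlin-2 KO vehicle 1. The KO effect with 4PBA minus that with vehicle was 1.16 for Osgin1 (SE 0.32, unadjusted p = 0.00273, adjusted p = 0.528), against 0.0893% of all probes called. Without the array labelled Derlin-2 KO vehicle 1 it was 1.24 (adjusted p = 0.425). Without control 4PBA 2, whose Osgin1 spot was not well above background, it was 0.91 (adjusted p = 0.792), and over 17 other settings it lay between 0.62 (normexp background correction) and 1.41, called in 0.

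**Figure D4:**
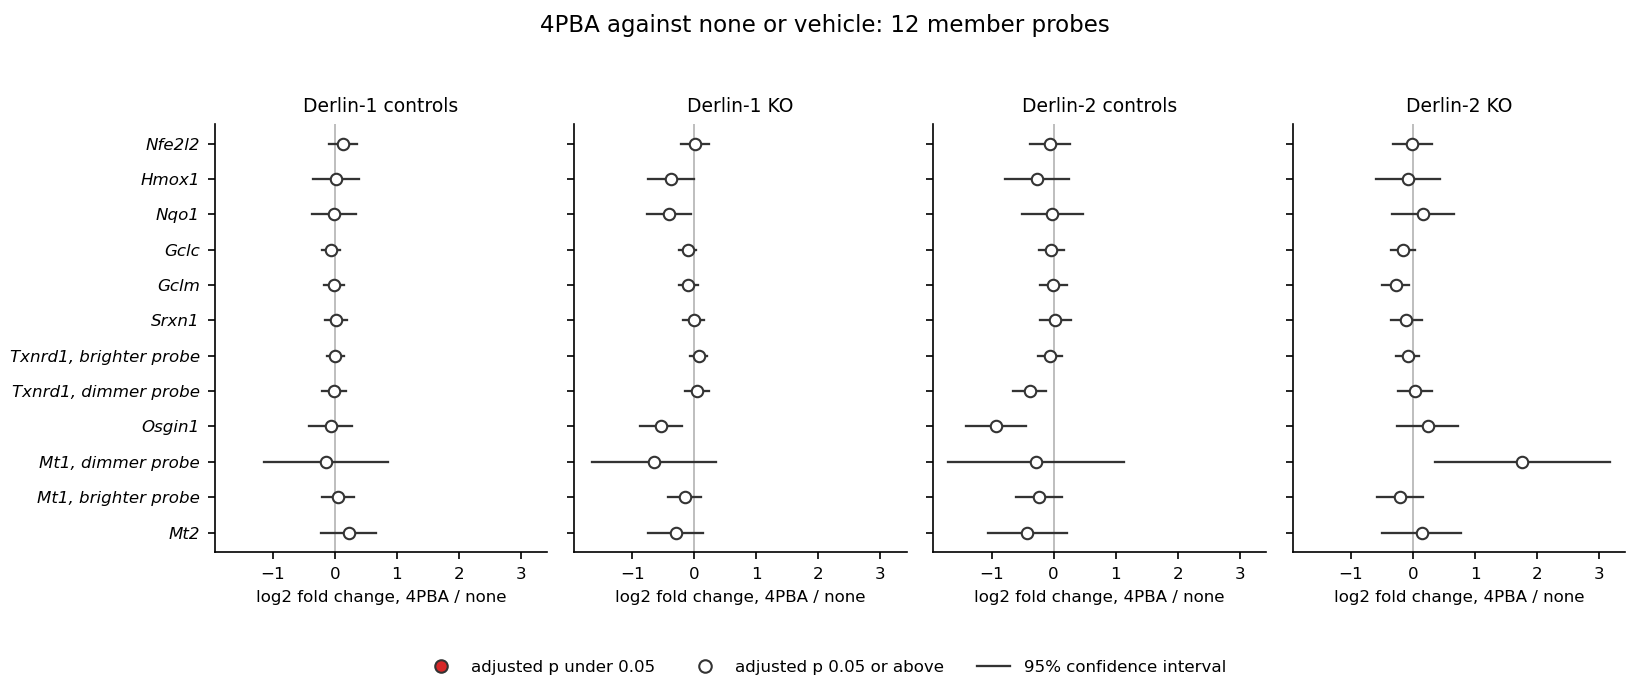
Log2 fold change of 4PBA against vehicle or no treatment (x axis) for the 12 member probes (y axis) in the 4 genotype groups, with 95% confidence intervals from limma. No point has an adjusted p under 0.05, Osgin1 in the Derlin-2 controls lies at -0.93, and the dimmer Mt1 probe has the widest intervals.

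The other genes of these pathways were followed in 8 lists of 63 genes, each on its brightest probe, and all 63 were measured. In the Derlin-1 KO without 4PBA 6 rose, 0 fell, 33 were above and 30 below 0. Among the brightest probes of all genes 6.79% were called, so 6 of 63 is near the background. Over the other settings between 1 (a fit of the Derlin-1 arrays only) and 9 (with 1 probe per gene) were called. Within the lettered series alone 1 of the 63 was called, Chac1 (2.74, SE 0.48, adjusted p = 0.0364), and within the numbered series none. None of the 63 was called in the 7 other comparisons of KO or 4PBA with all arrays and the main settings. There the share of all genes called was 0.0472% for the Derlin-1 KO with 4PBA, 0.106% and 0.136% for the Derlin-2 KO with vehicle and with 4PBA, 0.0295% and 0.0354% for 4PBA in the Derlin-1 controls and KO, and 0.13% and 0.136% for 4PBA in the Derlin-2 controls and KO.

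Some of these counts of 0 rested on single arrays. Without lettered KO 4PBA array b, the count for the Derlin-1 KO with 4PBA was no longer 0, but far more of all probes were called too. That fit leaves only array a in its group. Its called genes were Chac1 (2.08, SE 0.20), Slc3a2 (0.57, SE 0.11) and Slc7a11 (0.53, SE 0.12), all higher. In the same fit the number of microglia genes called went from 0 to 8 of 10. For 4PBA in the Derlin-1 KO, Chac1 was called as lower without lettered KO 4PBA array a (-1.15, adjusted p = 0.0234). That fit leaves array b, whose label is doubtful, as the only lettered KO 4PBA array, and it also called 6 of the 10 microglia genes as lower. For 4PBA in the Derlin-1 controls, Maff, a small MAF partner of NRF2, was called as higher without control 4PBA 1 (1.03, adjusted p = 0.05 after rounding). For 4PBA in the Derlin-2 KO, Ftl1 was called as lower without KO vehicle 1 (-0.98, adjusted p = 0.0336) or KO 4PBA 1 (-0.98, 0.0228). Ftl1 was also called there with normexp correction (-0.83, 0.0351), with the median as scale (-1.06, 0.0441) and with no filter on dim probes (-0.81, 0.00586).

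Of 8 regulators and partners of NRF2, 7 were above 0 and 2 rose, with a median log2 fold change of 0.20 against -0.01 over all genes. Sqstm1, the autophagy receptor p62 that can take KEAP1 away from NRF2, rose by 0.32 (SE 0.07, adjusted p = 0.0161), and Nfe2l1, a related factor for proteasome genes, by 0.28 (SE 0.08, adjusted p = 0.0495). Keap1 had 0.04 (adjusted p = 0.797) and Bach1, a repressor of Hmox1, -0.07 (adjusted p = 0.688). Of 13 genes of glutathione supply and use, 8 were above 0 and 2 rose. Chac1, an enzyme that degrades glutathione and a known target of ATF4, rose by 2.19 (SE 0.34, adjusted p = 0.0054). Slc3a2, which pairs with the cystine carrier Slc7a11, rose by 0.55 (SE 0.13, adjusted p = 0.0299), while Slc7a11 itself had 0.40 (adjusted p = 0.109).

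Of 11 thioredoxin and peroxiredoxin genes 3 were above 0 and 8 below, with a median of -0.11. The 1 that rose was Txnip, which inhibits thioredoxin (1.12, SE 0.27, adjusted p = 0.0312). NADPH supply had 1 of 6 above 0 (median -0.11), superoxide and peroxide removal 2 of 4 (-0.10), and haem and iron handling 3 of 9 (-0.08), with none called. In that last list Hmox2, the constitutive haem oxygenase, had -0.17 (adjusted p = 0.254) and Ftl1 0.15 (adjusted p = 0.481). Metal sensing, zinc transport and the brain metallothionein had 3 of 6 above 0, and Mt3, that brain form, had 0.17 (adjusted p = 0.38).

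Glucocorticoid-induced genes were listed because these hormones also induce the metallothioneins. In the Derlin-1 KO without 4PBA 6 of 6 were above 0 with a median of 0.48, where 48.8% of all genes were above 0, and Fkbp5 rose by 1.05 (SE 0.26, adjusted p = 0.0352). Zbtb16 had 1.58 (adjusted p = 0.0552) and Tsc22d3 0.34 (adjusted p = 0.285). In the Derlin-1 KO with 4PBA 3 of 6 were above 0, with a median of -0.04, against 45.1% of all genes. In the Derlin-2 KO with vehicle 0 of 6 were above 0, against 48.7% of all genes, with a median of -0.79, and none was called. Without the array labelled Derlin-2 KO vehicle 1 the count was again 0 of 6 and the median -0.81. In the Derlin-2 KO with 4PBA 1 of 6 was above 0, with a median of -0.11, against 42% of all genes. The list also shifted between 4PBA and no 4PBA, with none called. In the Derlin-1 controls 5 of 6 were above 0 (median 0.256, 49% of all genes) and in the Derlin-1 KO 1 of 6 (-0.373, 46.8%). In the Derlin-2 controls 0 of 6 were above 0 (-0.416, 40.4%) and in the Derlin-2 KO 5 of 6 (0.255, 38%). With vehicle, Tsc22d3 had 4.04 and 4.14 in the Derlin-2 controls and 3.60 and 3.37 in the KO, and like Mt2 it was lower on both vehicle KO arrays than on both vehicle controls. Whether these genes and Mt2 share a cause in these mice was not tested.

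Most of these pathway calls were close to the threshold. Chac1 kept its call under all 18 other settings (adjusted p 3.34e-05 to 0.0457). Nfe2l1 lost it when any 1 of the 8 arrays compared was left out (0.0534 to 0.165). Sqstm1 lost it without control vehicle 2 (0.0515), KO vehicle 2 (0.0715), untreated control a (0.0624) or untreated KO a (0.0733). Slc3a2 lost it without any 1 of the 8 arrays but control vehicle 1 (0.0593 to 0.108). Txnip lost it without control vehicle 1 (0.069) or 2 (0.0909), KO vehicle 1 (0.0539) or 2 (0.121), untreated control a (0.114) or untreated KO a (0.153). Fkbp5 lost it without control vehicle 2 (0.13), KO vehicle 1 (0.077) or 2 (0.118), untreated control a (0.124) or untreated KO a (0.159). With the median as scale Nfe2l1 (0.481), Sqstm1 (0.223), Slc3a2 (0.14) and Fkbp5 (0.0632) lost it too. In a fit of the Derlin-1 arrays only, Nfe2l1 (0.151), Sqstm1 (0.0796), Slc3a2 (0.102), Txnip (0.0939) and Fkbp5 (0.099) all lost it. With no filter on dim probes Nfe2l1 (0.103), Slc3a2 (0.0548), Txnip (0.0538) and Fkbp5 (0.0611) did. Txnip also lost it with the replicate block (0.052), and Nfe2l1 in the authors' series table (0.0621). No sign changed among these 6 genes.

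**Figure D5:**
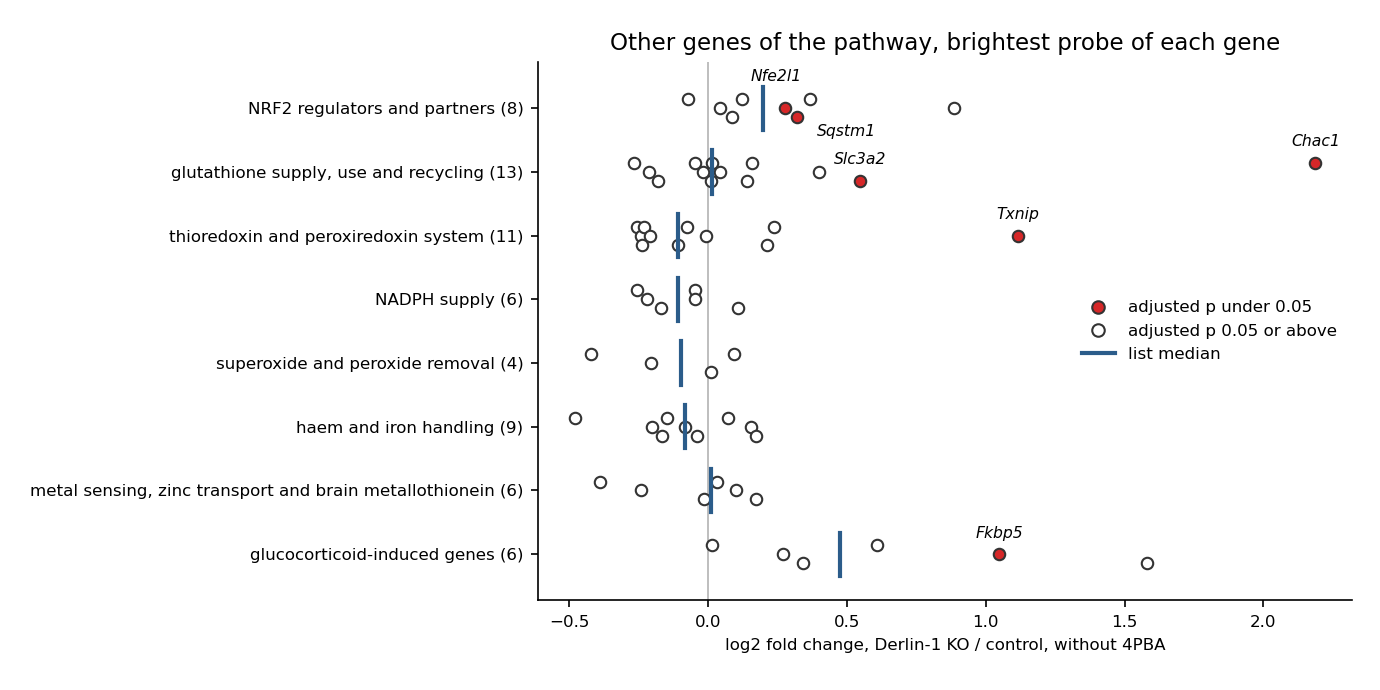
Log2 fold change of the Derlin-1 KO against control without 4PBA (x axis) for the 63 pathway genes, each on its brightest probe, in 8 lists (y axis, number of genes in parentheses). Filled red points have an adjusted p under 0.05 and are named, blue lines are list medians, and Chac1 lies farthest out at 2.19.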

How the data were processed

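Agilent Feature Extraction 10.7.1.1, per the submitters' processing notes, made the scanner files the authors deposited, whose processed signals are background-corrected intensities. From these, log2 intensities were taken minus each array's 75th percentile over 59305 non-control spots. Spots flagged as outliers were left out and repeated spots averaged. The 38115 probes well above background on both arrays of a group were fitted in limma 3.58.1 (R 4.3.3) with a mean per group over all 24 arrays (12 residual degrees of freedom, two-sided), and p-values were adjusted over all probes with a value in the comparison (38088 to 38115). Derlin-1 comparisons weighted both series equally. The deposited series table holds linear intensities that match these signals, and was an alternative. The fit was tested on simulated data.

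The members and lists were chosen with earlier results of these data known. Named genes were all members, the up to 3 called genes with the largest change per list and direction, the 3 genes most like each member, and the Derlins; a few other list genes were named after their values were seen. Same-numbered arrays were not treated as pairs. One gene that these rules name is not reported here.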

Additional observations from a re-analysis of the deposited data

How the results depend on the processing

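Over the alternatives tried, 2449 of 2460 values on member probes kept their direction where called and their side of the threshold, 7 lost a call, 4 gained one and 0 called values turned sign, while 167 values that were not called changed sign. The count of members called in the Derlin-1 KO without 4PBA was 1; it was 0 with the median in place of the 75th percentile and 0 with only the arrays of that line, and it ranged from 0 to 2 when 1 array was left out. The count for 4PBA in the Derlin-2 controls was 0 and became 1, Osgin1, under quantile normalisation, with the median as scale and with no filter on dim probes. With the replicate block the Hmox1 change was 0.76 (SE 0.13, adjusted p = 0.0104) and the count of called probes 2292. Same-numbered arrays deviated together in 8 of 18 pairs (r above 0.1), and r was above 0 in 11. With r ranging from -0.21 to 0.65, whether the numbers pair the arrays is not settled.

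Counts over all probes moved more. They ranged over the alternatives from 318 to 3343 for the Derlin-1 KO without 4PBA (1938), from 1 to 1079 with 4PBA (24), from 8 to 159 for the Derlin-2 KO with vehicle (46) and from 10 to 210 with 4PBA (65). For 4PBA they ranged from 0 to 72 in Derlin-1 controls (13), 1 to 163 in Derlin-1 KO (20), 7 to 3950 in Derlin-2 controls (67) and 10 to 5518 in Derlin-2 KO (59), the highest of the last 2 with no filter on dim probes. For the differences between effects they ranged from 0 to 39 (12) and 0 to 117 (34) for 4PBA in the 2 lines, 0 to 43 (5) between series and 0 to 172 (18) between lines. The median as scale moved the share of calls that were higher from 49.8% to 34.6% in the Derlin-1 KO without 4PBA. It moved the median of all probes from -0.02 to -0.18 for 4PBA in the Derlin-2 controls, from -0.01 to -0.26 in the Derlin-2 KO and from 0.01 to -0.18 for the difference between series. The cause was not tested. Normexp correction was planned on mean signals, which the scanner files do not hold. It was run on median signals, a choice made after seeing the data. Leaving out both arrays with doubtful labels was also added after the data were seen. Osgin1 has no value under the filter on all 24 arrays, nor the dimmer probes of Mt1 and Txnrd1 with 1 probe per gene.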

Other observations

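The dimmer Mt1 probe spread more than any other member: its level ranged from -3.48 to 0.59, and the 2 untreated Derlin-1 controls had -2.06 and 0.59. The brighter Mt1 probe on the same 2 arrays had 7.15 and 7.12. This spread was picked out after the values were seen, and its source was not tested.

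Choroid plexus markers had a mean level between -2.30 and 3.17 over the 24 arrays, a spread larger than that of any member, and red blood cell markers one between 2.78 and 5.81. Neither list had a called gene in the Derlin-1 KO without 4PBA.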
